A study of Mus musculus with 2 samples.

Results

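Cluster 3 of the naive cDC2s was examined here, one of 7 clusters that the authors had cut from the mRNA of conventional type 2 dendritic cells (cDC2s) of unimmunized mice. Its members are the cells of the naive CITEseq library that carry the number 3 in the authors' mRNA cluster label, a label given to cDC2s only. These deposited labels number the clusters of each library separately. They differ from the joint division over both libraries that the study describes, and were not matched to it. There were 432 of them among 2024 labelled naive cDC2s (21.3%) and among 11067 cells in both libraries of the series. The other 1592 labelled naive cDC2s, in clusters 1, 2, 4, 5, 6 and 7, served as the comparison. CITEseq reads mRNA and antibody-bound surface proteins of the same cell. The naive library held MHCIIhi CD11c+ B220- cells sorted from skin-draining lymph nodes of unimmunized mice, and the second library held cells of the same sort 1 day after immunization with OVA plus papain, a protease that acts as an allergen. According to the methods, all mice were C57BL/6N (B6), the papain cells came from popliteal nodes and the naive cells from pooled skin-dLNs, while the labels name popliteal nodes in the protocol of both, so node site and immunization cannot be told apart. The number of mice behind each library was not given in the sources used here.

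Each condition was a single library. Replicate error is therefore unknown, and neither tests nor p-values are given. The intervals are 95% intervals (exact binomial for shares and for ratios of summed UMIs, exact Poisson for levels) and cover counting error only. Levels are CPM, a gene's UMIs in all cells of a group per 1000000 UMIs of that group. A gene was called higher or lower when its CPM differed at least 1.5-fold and reached 10 CPM in the higher group. Because the clusters were cut from these same mRNA values, the gene ratios describe the cluster and are no evidence that it exists. The antibody values were not used for that clustering as far as the methods say.

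cDC2s take up antigen in peripheral tissue and in the node and present it on MHC class II to CD4+ T cells. Those that migrate from the skin mature on the way. They gain the chemokine receptor CCR7, which guides them along lymph into the node, together with costimulatory molecules and the T cell-attracting chemokines CCL17 and CCL22, and they lose endocytic receptors. In the skin-draining nodes, many cDC2s bear CD301b (MGL2), a galactose-binding C-type lectin by which the study divided the cDC2s into CD301blo, CD301bint and CD301bhi cells.

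The surface of the cells was read with 12 antibodies, each carrying a DNA barcode of 15 bases that is sequenced with the cell. The barcodes of the antibodies whose values are used here, and of a pair that was set aside, are printed 5′ to 3′ as the study listed them.
CD301b: cttgccttgcgattt
I-A/I-E (MHC class II): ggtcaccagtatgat
CD11c: gttatggacgcttgc
CD8a: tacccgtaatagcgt
CD172a: gattcccttgtagca
XCR1: tccattacccacgtt
CD326: acccgcgttagtatg
CD11b: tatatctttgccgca
CD24: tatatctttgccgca
The last pair is the same sequence. In every naive cluster the summed CD11b counts were 1.14 to 1.22 times the CD24 counts, and neither was read as a marker here.

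Cells of cluster 3 were shallow and rich in *Malat1* and in mitochondrial ribosomal RNA. Their median was 9893 UMIs per cell (quartiles 8103 to 11609), against 15626 in the other labelled cDC2s, and among the 7 clusters only the 55 cells of cluster 6 were shallower, at 5929. A cell of cluster 3 had a median of 2494 detected genes. Mitochondrial genes took a median of 6.58% of its UMIs (quartiles 4.78% to 8.31%), the highest median of the 7 clusters, which otherwise ran from 2.95% to 5.13%. *mt-Rnr2*, the 16S ribosomal RNA of mitochondria, stood at 50496 CPM in cluster 3 and 25949 CPM in the others, whereas none of the 9 mitochondrial protein-coding genes tested was called (median log2 ratio 0.19). *Malat1*, a long non-coding RNA kept in the nucleus, stood at 62729 CPM against 34685 CPM. Depth, mitochondrial share and *Malat1* thus moved together with the mRNA results below, and their part in those results was not tested. For some results values from cells of 8000 to 12000 UMIs are given beside them. That range held 244 cells of cluster 3 and 231 others, with medians of 9992 and 10660 UMIs and mitochondrial medians of 6.31% and 3.89%. It also changed the mix of clusters among the others, since most cells of cluster 1 were deeper (lower quartile 15669 UMIs).

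**Figure D1:**
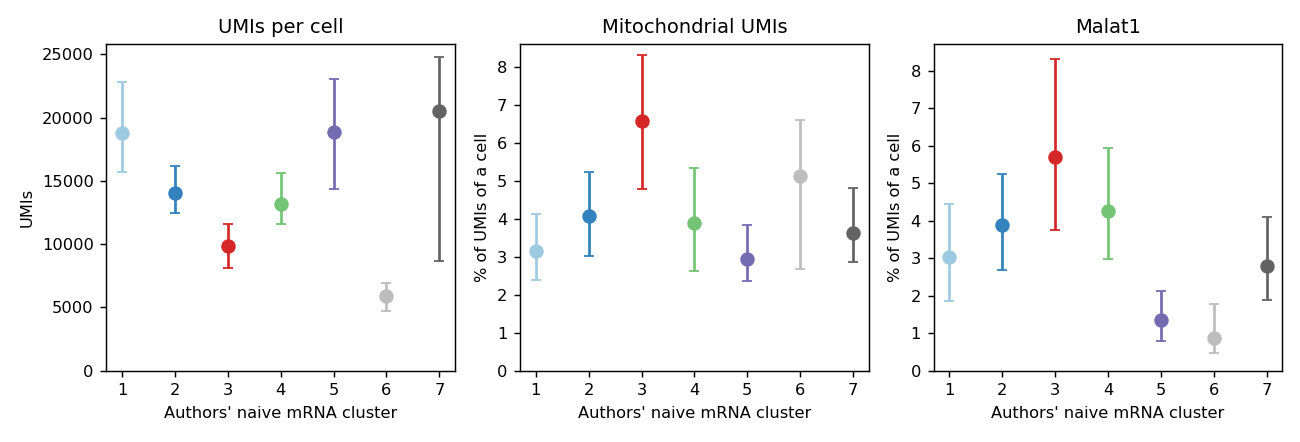
UMIs per cell, mitochondrial UMIs in percent of a cell's UMIs, and Malat1 in percent of a cell's UMIs for the 7 naive cDC2 clusters; points are medians over cells and bars the quartiles. Cluster 3 (red) has a median of 9893 UMIs, the highest mitochondrial median, 6.58%, and the highest Malat1 median.

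The study told cDC2s from cDC1s and LCs by the antibodies to CD172a, XCR1 and CD326, so these values follow from the cDC2 label and do not check it. The cluster bore CD172a (SIRPα), a cDC2 protein, at a median of 1.63 on the authors' natural log scale, against 0.12 in the 578 naive cDC1s, and its XCR1, a cDC1 protein, had a median of 0.15, against 1.26 in the cDC1s. Its CD326 (EpCAM), high on Langerhans cells (LCs), had a median of 0.41 against 3.42 in the 440 LCs. The label was checked against mRNA, in which several usual cDC2 genes were near 0, while others on the same list, such as *Klf4* and *Irf4* (values below), were not. *Itgam* stood at 1.17 CPM, *Cd209a* at 0.469 CPM and *Mgl2* at 1.41 CPM, and *Clec10a* had no UMI in the cluster. All of these were under 4 CPM in clusters 1, 2 and 4 as well. *Sirpa*, which encodes CD172a, was detected at 31.6 CPM, the lowest of the 7 clusters, against 114, 53.7, 39.3, 226, 151 and 39.7 CPM in clusters 1, 2, 4, 5, 6 and 7. The 9 cDC2 markers summed to 568 CPM, against 914 CPM in the others and 575 CPM in the others without cluster 5. Of the 8 cDC2 markers tested 6 were called lower and none higher, and without cluster 5 it was 2 of 5. 3 of the 8 were under 10 CPM in cluster 3 and passed only through the others, so the count bears little on the label. Of 8 migratory DC markers, 7 reached 10 CPM, 1 of them was called higher (none without cluster 5) and 1 lower. *Ccr7* was at 3799 CPM against 3640 CPM in the others.

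Markers of other cells differed in level for some cell types and were close for others. Of the 5 Langerhans cell markers tested 1 was called higher and 2 lower, and without cluster 5 it was 1 of 3 higher and 0 lower. The summed level over the list was 359 CPM against 317 CPM in the others. The sums were 484 against 503 CPM for cDC1 markers and 251 against 270.4 CPM for plasmacytoid DC markers. The summed level of 12 monocyte or macrophage markers was 21.6 CPM, against 21.9 to 897 CPM in the other clusters, with *Fcgr1*, *C1qa* and *C1qb* at 0 UMIs. The 11 B cell markers summed to 30.5 CPM, against 15.1 to 90.4 CPM in clusters 1, 2, 4, 5 and 6 and 684 CPM in cluster 7, with *Cd79a* at 0 UMIs. The 12 T cell markers summed to 214 CPM, against 216 CPM in the others (1928 CPM in cluster 7 and 103 to 245 CPM in the rest), of which *Il7r* gave 157 CPM and the T cell receptor genes *Trac*, *Trbc1* and *Trbc2* gave 2.58, 2.11 and 4.92 CPM. The authors' label for cells with a *Cd3e* or *Trac* UMI was on 14 of the 432 cells (3.24%, interval 1.78% to 5.38%), against 4.77% of the others, in which 28 of the 76 labelled cells lay in cluster 7. The libraries shared 2 cell barcodes, none in cluster 3.

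Against the other labelled naive cDC2s, 725 of 7536 genes (9.62%) were called higher in cluster 3 and 1011 (13.4%) lower, with a median log2 ratio over all of them of -0.03. The genes with the highest ratios were of modest level and mixed in kind. They were *Myb*, *Calm4*, *Gm26603*, *Insm1*, *Dscam*, *Sned1*, *Atr*, *Olfr109*, *Mir99ahg*, *Art2a*, *Gm44292*, *Trp53inp1*, *Gm42602*, *H2-K2* and *Lrmp*, taken as the 15 highest among genes of at least 50 CPM. Their log2 ratios ran from 1.20 to 1.69, and *Cbx7*, at 1.19, came just after them. For 12 of the 15, cluster 3 was the highest of the 7 clusters. Outside the cDC2s, *Olfr109*, *Gm44292* and *Art2a* were higher in naive cDC1s (112, 141 and 106 CPM) than in cluster 3. *Olfr109* and *Trp53inp1* were higher in naive LCs (149 and 86.0 CPM), and the rest of the 15 were lower in both.

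*Insm1*, a zinc-finger transcription factor known from neuroendocrine cells (chr2:146221997-146225020, GRCm38), was the most abundant of them. It stood at 257 CPM in cluster 3, and at 85.9, 133, 112, 19.8, 90.9 and 65.0 CPM in clusters 1, 2, 4, 5, 6 and 7. Naive cDC1s and LCs had 204 and 194 CPM. The log2 ratio to all others was 1.55 (1.45 to 1.66), and 1.39 in cells of 8000 to 12000 UMIs. A UMI of *Insm1* was found in 303 of the 432 cells (70.1%, interval 65.6% to 74.4%) and in 46.4% of the others, and after each cell was thinned to 8355 UMIs the shares were 70.3% and 36.4%. That thinning left out 123 cells of cluster 3 and 80 others. As a rough guide to background UMIs, 3 B cell genes were looked at. *Cd79a* was found in 0% of cluster 3 cells and 0.88% of the others, and *Ms4a1* in 1.16% and 1.95%. *Cd79b* was found in 2.08% and 6.22%, but in 17.9% of cluster 5 and 20% of cluster 7, so it was not even over the clusters.

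*Myb* (chr10:21124930-21160984), a transcription factor of blood progenitors, was at 55.8 CPM in cluster 3. In clusters 1, 2, 4, 5, 6 and 7 it was at 13.8, 23.8, 18.2, 11.9, 12.1 and 41.9 CPM, and its log2 ratio was 1.69 (1.45 to 1.92). *Calm4* (chr13:3837757-3838671), a calmodulin-like gene of the epidermis, was at 139 CPM, above 83.1 CPM in cluster 2, the next highest, and 2.05 CPM in cluster 5. No gene list used here held *Myb* or *Calm4*.

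Other leading genes included *Dscam*, a cell adhesion molecule of neurons, at 58.8 against 20.9 CPM, and *Trp53inp1*, a p53-induced gene, at 62.8 against 26.1 CPM. *Trp53inp1* was as high in the 50 cells of cluster 7 (65.0 CPM), and *Sned1* and *Art2a* were as high elsewhere too. *Sned1*, an extracellular matrix protein, was at 72.7 CPM in cluster 3 and 75.7 CPM in cluster 2, and *Art2a*, listed in GRCm38 as a transcribed pseudogene, at 66.8 CPM in cluster 3 and 67.1 CPM in cluster 4. The counts of *H2-K2* and *Art2a* are uncertain, because each has a closely similar gene (*H2-K1*, *Art2b*) whose reads could have been split.

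*Atr*, the kinase that senses stalled replication forks (chr9:95857597-95953217), differed from the others in its spread over cells. It was at 52.3 CPM in cluster 3 and between 12.1 and 24.2 CPM in the other clusters, but 58.3% of its 223 UMIs in cluster 3 lay in 10 cells, and 1 cell held 42 of them. A UMI was found in 83 of 432 cells, as many as in the 432 cells of cluster 2, and in 148 of 536 cells of cluster 1. For *Myb* and *Insm1*, the 10 richest cells held 16% and 13.8% of the UMIs, and for *Calm4* 35.8%.

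**Figure D2:**
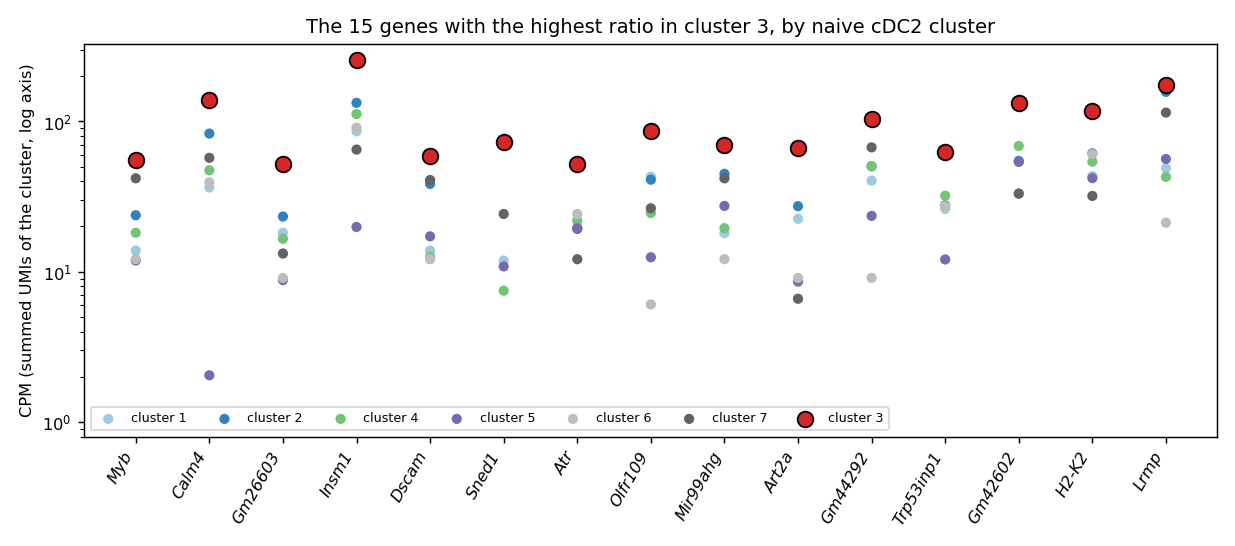
CPM (log axis) of the 15 genes with the highest ratio of cluster 3 to the other labelled naive cDC2s, one column per gene and one point per cluster; cluster 3 is the large red point, and a cluster with no UMI has no point. Cluster 3 is the highest of the 7 clusters for 12 genes; Sned1, Art2a and Trp53inp1 are slightly higher in clusters 2, 4 and 7.

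The lowest ratios were mostly of genes high in cluster 5. *Plaur*, *Ccl4*, *Wfdc17*, *Lyz1*, *Cd53*, *Mgl2*, *Plbd1*, *Lyz2*, *Ly6e* and *Mmp12* had log2 ratios between -6.85 and -4.42, and cluster 5 had the highest level of 9 of them. *Lyz2*, the lysozyme of myeloid cells, was at 24.6 CPM in cluster 3 and 3763 CPM in cluster 5, and at 9.96 to 147 CPM in the remaining clusters. All 10 passed the 50 CPM minimum only through the others, and without cluster 5 none reached it. Without cluster 5, *Wfdc17* (log2 ratio -4.48), *Ccl4* (-3.71), *Ly6e* (-3.53) and *Cd53* (-3.47) were at 15.3 to 26.1 CPM in the others and still lower in cluster 3. *Ly6e* and *Cd53* were high in the 50 cells of cluster 7 (429 and 236 CPM). *Plaur*, *Lyz1* and *Plbd1* were at least 1.5-fold lower too, but under 10 CPM in both groups. The log2 ratio of *Lyz2* was then -0.50, and that of *Mmp12*, a macrophage elastase, was 0.0045. Across all genes, leaving out cluster 5 brought the genes called lower from 1011 to 649 (8.82% of 7358) and those called higher from 725 to 603 (8.20%). Counts over gene lists are therefore given without cluster 5 too where they differ.

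Chemokine genes were lower in cluster 3. Of 17 on the list, 15 reached 10 CPM in either group, 12 of these were called lower and none higher, and without cluster 5 it was 10 of 13. 7 of the 15 were under 10 CPM in cluster 3 and so passed only through their level in the others. *Ccl22*, a ligand of CCR4, stood at 658 CPM in cluster 3. In clusters 1, 2, 4, 5, 6 and 7 it was at 3154, 1491, 1064, 264, 5544 and 1120 CPM. *Ccl17*, the other CCR4 ligand, stood at 87.2 CPM, below every cluster but cluster 5 (63.8 CPM), with 701 CPM in cluster 1 and 175 CPM in cluster 2. The log2 ratios were -1.53 (-1.59 to -1.48) for *Ccl22* and -2.14 (-2.30 to -1.99) for *Ccl17*. In cells of 8000 to 12000 UMIs they were -1.40 and -1.44. *Ccl5* did not share this pattern (6296 against 5263 CPM).

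Costimulatory genes were low as well, with exceptions. 11 of the 16 tested were called lower and 3 higher, and without cluster 5 it was 9 of 15 lower and 2 higher. 4 of the 16 were under 10 CPM in cluster 3 and passed only through the others. *Cd40*, through which CD4+ T cells license DCs, was at 178 CPM against 408 CPM (log2 ratio -1.20, interval -1.31 to -1.09). Its level was 605, 479 and 676 CPM in clusters 1, 2 and 6 but 144, 113 and 206 CPM in clusters 4, 5 and 7. *Tnfsf9*, the ligand of 4-1BB, was at 42.2 against 178 CPM and was lower in cluster 3 than in any other cluster. *Cd80*, a ligand of CD28, was at 22.5 CPM, likewise the lowest of the 7 clusters, against 68.6 CPM. *Tnfsf4* (OX40L) and *Cd70* had 2 and 3 UMIs in all 432 cells. The 3 called higher were *Icosl*, the ligand of ICOS (219 against 112 CPM), *Slamf1* (83.9 against 39.8 CPM) and *Tnfrsf1b*, a TNF receptor (339 against 216 CPM), which are named here after their values were seen. Without cluster 5, *Tnfrsf1b* was within 1.5-fold (log2 ratio 0.53).

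Of 11 cytokine genes tested, 8 were called lower and none higher, and 7 of 11 without cluster 5. 3 of the 11 were under 10 CPM in cluster 3 and passed only through the others. *Il12b* and *Ebi3*, which encode subunits of the IL-12 family, were at 41.7 against 141 CPM and 11.7 against 58.0 CPM. Both were lower in cluster 3 than in any other cluster. *Il2*, the cytokine the study centred on, had 14 UMIs in 13 of the 432 cells (3.01%, interval 1.61% to 5.09%), against 6.22% of the others, and after thinning the shares were 2.21% and 3.27%. Its level was 3.28 CPM against 3.93 CPM (log2 ratio -0.26, interval -1.18 to 0.55), a difference not detectable at this depth. *Il2ra*, the high-affinity receptor chain, was at 77.1 against 55.8 CPM, within 1.5-fold. The log2 ratio of *Il2ra* was 0.47, but -0.14 in cells of 8000 to 12000 UMIs, where the others are also a different mix of clusters. Depth and cluster mix cannot be told apart there. On the list of the IL-2 and common gamma chain axis, *Il15ra*, which presents IL-15, was the 1 gene of 14 called higher (189 against 108 CPM, but not without cluster 5) and was highest in cluster 3. *Socs3* and *Il2rb* were called lower, both under 10 CPM in cluster 3, and *Il2rb* was high in cluster 7 alone (288 CPM, against at most 5.53 CPM elsewhere).

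Not all genes of DC maturation were low. Of 29 tested on that list, 9 were called lower and 2 higher, and the median log2 ratio was -0.04. The lower ones were *Ccl17*, *Ccl22*, *Cd40*, *Cd80*, *Cd86*, *Cd200*, *Serpinb6b* and the PD-1 ligands *Cd274* and *Pdcd1lg2*, so this list overlaps the chemokine and costimulation lists. *Ccr7* was within 1.5-fold, and so were the actin bundler *Fscn1* (1529 against 1862 CPM) and *Cd83* (1730 against 1846 CPM). *Cacnb3* (767 against 489 CPM) and *Il15ra* were the 2 higher, but without cluster 5 their log2 ratios were 0.42 and 0.57 and neither was called, while 9 genes were called lower. *Relb*, a subunit of noncanonical NF-kB, was at 725 against 510 CPM, within 1.5-fold, and was highest in cluster 3 of all 7 clusters. On the CD40 and NF-kB list, 1 of 24 was called higher (*Chuk*) and 3 lower (*Cd40*, *Nfkb1* and *Nfkbiz*). Without cluster 5 none was called higher, with *Chuk* at a log2 ratio of 0.58, and 4 lower. Over all genes tested, 9.62% were called higher and 13.4% lower, and without cluster 5 it was 8.20% and 8.82%. *Ccr7*, *Ccl5*, *Fscn1*, *Cd83*, *Cacnb3* and *Relb* were named after their values were seen.

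MHC class II genes were low chiefly beside cluster 5. 9 of 13 tested were called lower and none higher, but without cluster 5 it was 1 of 12 lower and 1 higher. *H2-Ab1*, the beta chain of I-A, was at 697 CPM in cluster 3, at 928, 1312, 527, 1948 and 918 CPM in clusters 1, 2, 4, 6 and 7, and at 9317 CPM in cluster 5. *H2-DMa*, which helps to load peptides, was at 37.3 CPM, against 703 CPM in cluster 5 and 36.3 to 80.7 CPM elsewhere. MHC class I genes, in contrast, were near the others: *H2-Q7* was called higher (1122 against 689 CPM) among 17, none lower, and the median log2 ratio was 0.01. Without cluster 5 the log2 ratio of *H2-Q7* was 0.54, within 1.5-fold. *H2-Q7* has closely similar neighbours, so its count is uncertain.

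Calls differed among the other lists. Of 21 genes of actin and migration, 7 were called lower, both with and without cluster 5, among them *Vim* (1099 against 2570 CPM) and *Coro1a*, an actin-binding protein of leukocytes (64.0 against 243 CPM). *Vim* and *Coro1a* were lowest in cluster 3 of all 7 clusters. 8 of 12 integrin and adhesion genes were called lower (8 of 10 without cluster 5), though 5 of the 12 were under 10 CPM in cluster 3 and passed only through the others. So were 8 of 14 of glycolysis and hypoxia (6 of 14 without cluster 5), such as *Ldha* (27.7 against 62.2 CPM), while *Pfkfb3* was called higher (769.9 against 512 CPM, but not without cluster 5). Of 18 genes of apoptosis and survival, 6 were called lower and 2 higher (*Bbc3* and *Birc2*), and without cluster 5 it was 5 lower and none higher. The *Bcl2a1* genes *Bcl2a1a*, *Bcl2a1b* and *Bcl2a1d*, survival factors of leukocytes, were at 29.8 against 69.1, 381 against 807 and 624 against 1429 CPM. These 3 are near-identical copies, so their separate counts are uncertain. Also called higher were *Gadd45a*, a stress-response gene (34.2 against 13.1 CPM), *Abcg1*, a cholesterol exporter (828 against 462 CPM), and *Ccr6*, the receptor of CCL20 (17.1 against 7.71 CPM). Each was the only gene called higher on its list. Of 14 p53 and stress genes 3 were called lower (2 without cluster 5), and of 15 cholesterol genes 1. Of 7 chemokine receptors 4 were called lower, and without cluster 5 it was 0 of 4. The 10 richest cells held 33.6% of the *Gadd45a* UMIs. For *Ccr6* the log2 ratio of 1.15 was 0.36 in cells of 8000 to 12000 UMIs. Of 21 immediate early genes 6 were called lower and *Jun* higher, but without cluster 5 it was 1 of 19 lower and 1 higher. Of 20 DC transcription factors 5 were called lower (3 without cluster 5), among them *Klf4* (139 against 235 CPM), and *Irf4*, needed by cDC2s, was at 48.0 against 56.2 CPM. Of 30 ribosomal protein genes 2 were called lower (1 without cluster 5), and of 14 interferon-stimulated genes 1.

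**Figure D3:**
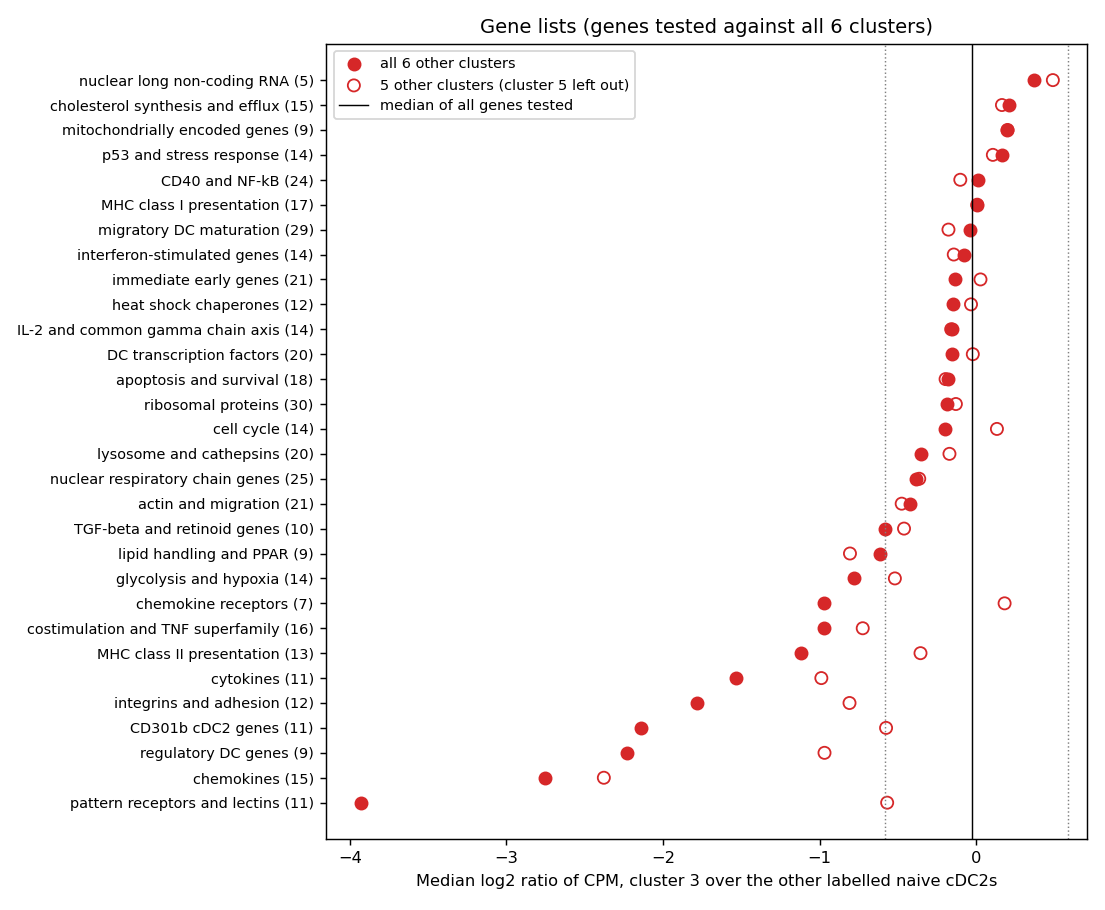
Median log2 ratio of CPM in cluster 3 over the other labelled naive cDC2s for each gene list with 5 or more genes tested (number in brackets), against all 6 other clusters (filled) and without cluster 5 (open, over the genes that reached 10 CPM there); the line is the median of all genes tested, -0.03, and dotted lines mark 1.5-fold. Genes under 10 CPM in cluster 3 enter a list only through the others and so lie to the left, among them 7 of 15 chemokines and 7 of 11 pattern receptors. The medians without cluster 5 are -2.38 for chemokines and -0.36 for MHC class II.

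By its whole profile, cluster 3 was most like cluster 2. Over 9337 genes, the Pearson correlation of log2(CPM + 1) was 0.976 with cluster 2, 0.956 with cluster 1, 0.954 with cluster 4, and 0.794 to 0.838 with clusters 5, 6 and 7. All clusters came from 1 library, and genes are not independent, so these are descriptions. After the clusters were thinned to the UMIs of the smallest, cluster 2 was still first, at 0.880.

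Against cluster 2, 936 of 7163 genes (13.1%) were called higher in cluster 3 and 380 (5.31%) lower. The 5 lowest ratios belonged to *Tnfsf9* (42.2 against 234 CPM), *Il12b* (41.7 against 214 CPM), *Ebi3* (11.7 against 54.1 CPM), *Dusp14*, a phosphatase (25.1 against 101 CPM), and *Gpr183*, the oxysterol receptor EBI2 that positions DCs in lymphoid tissue (180 against 644 CPM). Their log2 ratios ran from -2.47 to -1.83. The 5 highest were *Ndrg3*, *Gm24447*, the interferon-inducible GTPase *Gbp4*, *Atr* and *AC160336.1*, with log2 ratios from 1.41 to 1.71. *Ndrg3* was at 133 against 40.8 CPM, but 44.2% of its UMIs in cluster 3 lay in 10 cells. *Gm24447* was at 289.7 against 96.4 CPM, but 1 cell held 340 of its 1236 UMIs in cluster 3, and its log2 ratio to all others of 1.19 was 0.37 in cells of 8000 to 12000 UMIs.

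Against cluster 1, 838 of 7415 genes (11.3%) were called higher and 1011 (13.6%) lower. *Ccl9*, a chemokine of myeloid cells, was at 11 CPM in cluster 3 and 121 CPM in cluster 1, *Tnip3*, an inhibitor of NF-kB signalling, at 7.5 against 85.7 CPM, and *Serpinb9b*, a serine protease inhibitor, at 8.91 against 80.8 CPM. The cell cycle gene *Ccnd2* was at 3.98 against 50.5 CPM, and *Mucl1* had 1 UMI in cluster 3 and 1153 UMIs in cluster 1. Few cells carried *Mucl1*: it was found in 54 (3.39%) of all other labelled naive cDC2s, and 1 of them held 367 UMIs. Cluster 2 also had little of *Ccl9* (17.0 CPM), of *Tnip3* (9.96 CPM) and of *Mucl1* (0.32 CPM). Among the 5 genes highest against cluster 1, *Sned1*, *Dscam*, *Myb* and *Mir99ahg* were already among the leading 15, and *Khdc1a*, at 62.6 against 14.1 CPM, was higher still in cluster 2 (151 CPM).

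Surface MHC class II stood highest in cluster 3 on the deposited scale. Its median was 5.79 (quartiles 5.51 to 6.01), against 5.73 in cluster 2, 5.29 in cluster 1 and 5.39 over all others, and the quartile ranges of cluster 3 and the others overlapped. MHC class II took 94.0% of the antibody counts of cluster 3 and 86.2% of those of the others. The scale is relative, since each value is set against the geometric mean of the 12 antibodies of the cell, and the median raw MHC class II count was lower in cluster 3 (6558) than in the others (7036). The antibody total had a median of 6932 counts per cell in cluster 3 and 8023 in the others. On the deposited scale, the protein order thus differed from the mRNA order, in which cluster 3 ranked 6 of 7 for *H2-Ab1*. MHC class II and CD11c were also used to gate the sorted cells.

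CD11c was low by both readouts. Its antibody median was 1.43 (quartiles 1.03 to 2.06) in cluster 3, next to 1.36 in cluster 2 and 1.45 in cluster 7, while clusters 1, 4, 5 and 6 lay between 2.43 and 3.65. The median raw CD11c count was 67 against 333.5 in the others. *Itgax*, which encodes CD11c, was at 12.2 CPM, next to 11.2 CPM in cluster 2, against 325 CPM in cluster 5 and 91.2 CPM over all others. Without cluster 5 the antibody difference of -0.96 was -0.76. CD8a had a median of 0.67 in cluster 3, below cluster 2 (0.98) and cluster 7 (0.82) and above the 0.46 of all others, but its median raw count was 18 against 20 and its share of the antibody counts 0.819% against 0.874%. CD172a differed little (1.63 against 1.69).

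**Figure D4:**
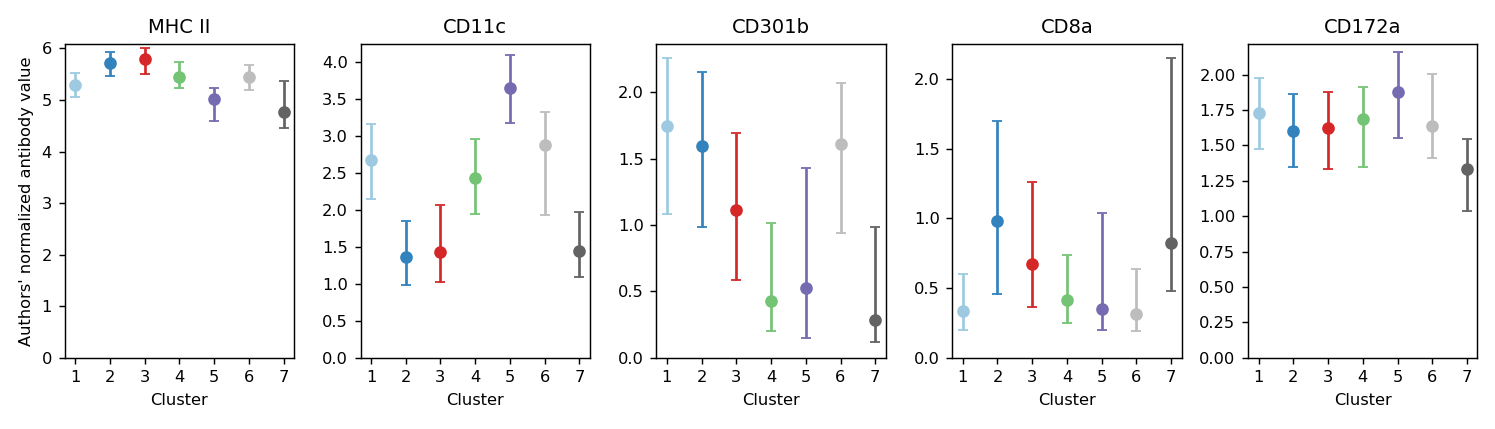
Authors' normalized antibody values (natural log of 1 plus the count relative to the geometric mean of a cell's 12 antibodies) for 5 antibodies in the 7 naive cDC2 clusters; points are medians over cells, bars quartiles, and each panel has its own scale from 0. Cluster 3 (red) has the highest MHC II median, 5.79, and a CD11c median of 1.43, next to clusters 2 and 7.

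CD301b on the surface was intermediate and widely spread. The median was 1.11 (quartiles 0.59 to 1.69) against 1.26 in the others, a difference within the spread of the cells. It was below clusters 1 (1.75), 6 (1.61) and 2 (1.60) and above clusters 5 (0.53), 4 (0.43) and 7 (0.29). In cells of 8000 to 12000 UMIs cluster 3 was above the others by 0.53. Most cells of cluster 1, which had the highest median, are deeper than that range, so the others there are a different mix of clusters. By the authors' classes, 114 of the 432 cells (26.4%, interval 22.3% to 30.8%) were CD301bhi, 175 (40.5%, 35.8% to 45.3%) CD301bint and 143 (33.1%, 28.7% to 37.8%) CD301blo. The CD301bhi share was below those of cluster 1 (53.4%), cluster 2 (47.7%) and cluster 6 (47.3%) and above those of cluster 4 (11.7%), cluster 5 (15.9%) and cluster 7 (8.0%).

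*Mgl2*, the gene of CD301b (chr11:70130125-70137542), was nearly absent from these cells. It had 6 UMIs in 6 of 432 cells (1.39%, interval 0.51% to 3.0%), and 1 of them lay in the 114 CD301bhi cells. Clusters 1, 2 and 4 were alike, with 1.88, 0.64 and 0.53 CPM, although 286 cells of cluster 1 were CD301bhi. Cluster 5, in contrast, had a *Mgl2* UMI in 106 of 246 cells and 276 CPM, with 703 CPM in its CD301bhi and 54.3 CPM in its CD301blo cells. Surface CD301b and *Mgl2* therefore ran together within cluster 5 but not across the clusters.

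Within cluster 3, the CD301b classes differed in other surface proteins and in mRNA. From CD301bhi through CD301bint to CD301blo, the antibody medians were 0.51, 0.70 and 0.87 for CD8a, 1.28, 1.39 and 1.75 for CD11c, and 5.84, 5.77 and 5.71 for MHC class II. For CD172a they were 1.72, 1.63 and 1.5. The medians of depth were 10171, 10115 and 9381 UMIs, those of the mitochondrial share 5.93%, 6.62% and 6.94%, and *Malat1* was at 58983, 62602 and 66209 CPM. The part of these in the class differences was not tested. The sum of the 15 leading genes was at 1496, 1479 and 1538 CPM.

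Between its CD301bhi and CD301blo cells, 820 of 7562 genes (10.8%) were called higher and 963 (12.7%) lower in the CD301bhi cells. *Cd8a* had the lowest ratio among genes of at least 50 CPM, with 5.95 CPM in CD301bhi, 16.5 CPM in CD301bint and 57.2 CPM in CD301blo cells, in the same order as its antibody. In the other clusters together it was at 25.8 CPM in CD301bhi and 69.3 CPM in CD301blo cells. 62.5% of the *Cd8a* UMIs of cluster 3 lay in 10 cells. *Ciita*, the master activator of MHC class II genes, was at 5.95, 6.81 and 54.2 CPM, and *H2-DMa* at 21.3, 24.4 and 68.5 CPM. *Cd200*, an inhibitory ligand, followed at 15.3, 31.8 and 70.0 CPM. In the other clusters together these ran the same way, with 32.3 and 82.4 CPM of *Ciita*, 109.8 and 281 CPM of *H2-DMa* and 49.3 and 102 CPM of *Cd200* in CD301bhi and CD301blo cells. The summed level of *H2-Aa*, *H2-Ab1*, *H2-Eb1* and *Cd74* was 7987, 6839 and 13688 CPM. Higher in CD301bhi cells were *Lilr4b*, an inhibitory receptor (80.8, 45.4 and 24.8 CPM), *Egr1*, an immediate early gene (260, 92.5 and 83.5 CPM), and *Irf8*, a transcription factor of DCs (251, 228 and 99.3 CPM). In the other clusters together *Irf8* was at 272 and 166 CPM in CD301bhi and CD301blo cells. These genes were named after their values were seen, as the 8 highest and 8 lowest of this comparison were looked at.

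Cluster 3 was more mixed in *Ccr7* than clusters 1, 2 and 4, the clusters most like it. Cells under 1000 CPM of *Ccr7* made up 103 of its 432 cells (23.8%, interval 19.9% to 28.1%), against 4.66%, 2.55% and 6.96% of clusters 1, 2 and 4, 14.5% of cluster 6, 36.0% of cluster 7 and 58.1% of cluster 5. The limit of 1000 CPM was chosen after the distribution was seen, it cuts a continuous range, and 99 cells of cluster 3 lay within 2-fold of it. The per-cell quartiles of *Ccr7* were 1067 and 5825 CPM in cluster 3, and 3277 and 6417 CPM in cluster 2.

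The surface proteins of the *Ccr7*-low cells differed from those of the rest of the cluster. Of the low cells 15.5% were CD301bhi and 45.6% CD301blo, against 29.8% and 29.2% of the other 329 cells. Their CD11c median was 1.81 against 1.35, and their MHC class II median 5.59 against 5.83. Their depth was close (medians of 9617 and 10063 UMIs), and their mitochondrial median was 7.93% against 6.29%. *Cd8a* was at 68.2 CPM in the low cells and 14.2 CPM in the rest, *Ciita* at 48.3 and 13.6 CPM, *Irf8* at 82.9 and 226 CPM, and *Ccl17* at 162 and 65.8 CPM. *Lyz2* was at 48.3 and 17.8 CPM, against 5213 CPM in the *Ccr7*-low cells of cluster 5. Of the leading genes, *Myb* was alike in both (55.6 and 55.8 CPM), *Insm1* was at 155 and 287 CPM, and *Atr* at 155 and 22.6 CPM.

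**Figure D5:**
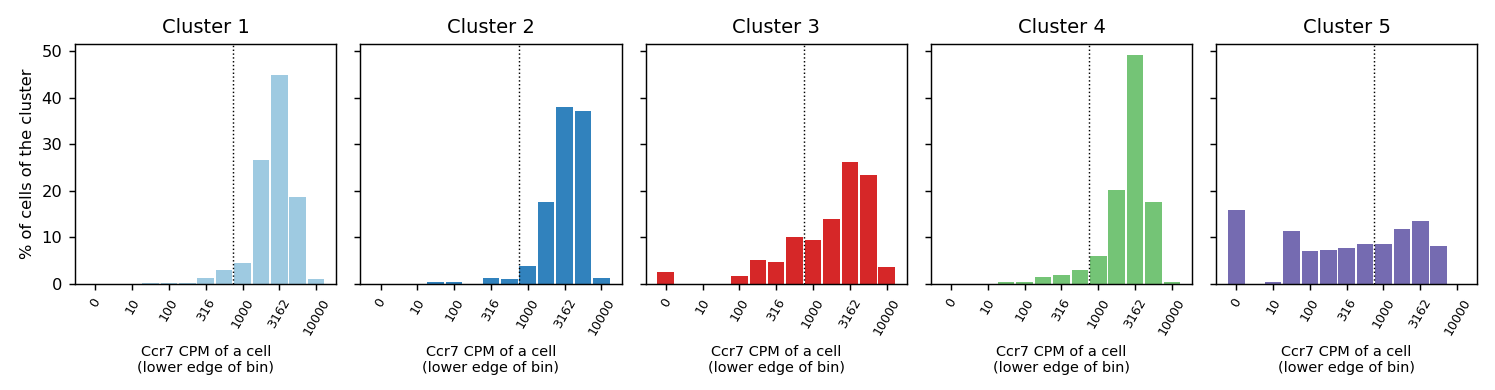
Distribution of Ccr7 CPM over single cells of naive clusters 1 to 5, in percent of the cells of each cluster; bins are of unequal width on a log scale, the first bar holds cells with no Ccr7 UMI, and the dotted line is at 1000 CPM. 23.8% of cluster 3 cells (red) lie left of the line, against 2.55% to 6.96% of clusters 1, 2 and 4.

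The papain cDC2s were clustered separately into 9 clusters, whose numbers do not correspond to the naive ones. Of the 15 leading genes, *Calm4* reached 141 CPM in papain cluster 2 and *Atr* 56.4 CPM in papain cluster 6, above the 139 and 52.3 CPM of naive cluster 3, and the others were lower in each papain cluster than in naive cluster 3. The 15 genes summed to 1502 CPM in naive cluster 3, to 326 to 861 CPM in the other naive clusters, to 949 CPM in naive cDC1s and 851 CPM in naive LCs, and to 336 to 678 CPM in the papain clusters. Since the genes were chosen for their high ratio in naive cluster 3, its higher sum was fixed by that choice against the other naive clusters and in part against the papain clusters. The highest papain sums were those of papain cluster 6 (678 CPM) and papain cluster 2 (664 CPM). Papain cluster 6, of 430 cells, also had the highest *Malat1* of the papain clusters (44820 CPM), the highest *mt-Rnr2* (38998 CPM) and the highest mitochondrial median (4.75%). The profile of naive cluster 3 had its highest correlation with papain cluster 2 (0.947 over 9678 genes), while the other correlations were 0.907 to 0.941. Papain cluster 2 in turn was most alike to naive cluster 2. With 1 library each, a difference between libraries cannot be told apart from one between nodes, mice or preparations.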

How the data were processed

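CITEseq data of 1 naive and 1 papain library were used (3471 and 7596 cells, 2682 to 57378 UMIs per cell). Per the labels, reads were processed with Cell Ranger 3.0.1 and Partek against mm10. The authors deposited log2 values of CPM plus 1 per gene and cell, scaled before some genes were left out. Whole UMIs were recovered from these values, and 100% of the values up to 50 UMIs were whole within 0.02. The deposited numbers of detected genes and antibody totals are counts. The deposited mitochondrial percent is a share of log2 values and was recomputed from UMIs, and the deposited total of the expression data is a score (a sum of log2 values) that was not used as depth. The antibody values the authors deposited are on a natural log scale, the ln of 1 plus the count relative to the geometric mean over 12 antibodies.

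Cells were grouped by the authors' mRNA cluster and CD301b labels. UMIs were summed per group. Ratios have exact conditional binomial intervals, and the script was tested on simulated data. A count of 0 was set to a floor of 3 for ratios. Cells with *Cd3e* or *Trac* UMIs were kept in the main values, and no doublet caller was run. The rule named the 15 highest and 10 lowest ratios among genes of at least 50 CPM, 5 each way against the 2 most alike clusters, *Il2*, *Il2ra*, *Cd40*, *Mgl2*, the antibody targets and up to 4 members of each of 32 lists. Gene positions are those of RefSeq on GRCm38.p6, in which 158 of 168 named genes matched by symbol. The cluster and the lists were chosen with earlier results of these data known. Alternatives changed the weighting of cells and clusters, the pseudocount, the filters on genes and cells, and the centring. numpy, scipy and pandas were used.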

Additional observations from a re-analysis of the deposited data

How the results depend on the processing

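No paired analysis was possible because the study has a single library for each condition. The 15 leading genes stayed at least 1.5-fold higher under each of 12 alternatives (log2 0.61 to 2.28). They were chosen as the highest ratios in these same cells, so this was in part fixed by the choice. The counts of genes called higher and lower, 725 and 1011, were 285 and 593 with a pseudocount of 10 CPM and 203 and 327 with a gene minimum of 50 CPM, where small or fewer genes pass by construction. Without cluster 5, chosen after seeing the data, 649 genes were called lower, 592 of them shared with the 1011, and the log2 ratios of *Mmp12*, *Fcgrt*, *Stmn1* and *Top2a* became 0.0045, 0.0063, 0.13 and 0.068. In cells of 8000 to 12000 UMIs, also chosen after seeing the data, 692 genes were called higher and 1096 lower. Of these, 411 and 674 were among the 725 and 1011. In that range the CD301b antibody difference became 0.53 and the log2 ratio of *Cebpa* 0.14. The range also holds a different mix of the other clusters, so depth and cluster mix cannot be told apart in these values. Other log2 ratios that changed sign there included those of *Il2ra*, *Khdc1a* and *Bag3*, at -0.14, -0.28 and 0.018. As log2 ratios of summed count shares, the antibody differences turned to -0.094 for CD8a, -0.40 for XCR1, -0.51 for CD64, -0.43 for Ly-6C and -0.49 for CD103. The chemokine receptor list, with a median of -0.97, was at 0.016 as a ratio of sums, which *Ccr7* dominates. Without cluster 5 the median of that list was 0.18. The cause of the antibody reversals was not tested. Of 1966 recomputed values, 1608 stayed within their limits, 346 moved and 12 were labelled as reversed. That label does not cover every change of sign, such as that of *Il2ra*. Depth limits statements on genes of a few UMIs, such as *Il2*.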
